A study of Mus musculus with 48 samples.

Results

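The 10 genes described here encode accessory subunits, partners of the COMPASS histone methyltransferases: Wdr5, Rbbp5, Ash2l, Dpy30, Cxxc1, Wdr82, Hcfc1, Men1, Paxip1 and Kdm6a. They were taken by symbol from the Ensembl identifiers of the RNA count files, and all 10 of 10 were found among 48709 identifiers of the neuron RNA files and 47729 of the whole CA files. The samples came from the hippocampal CA region of C57BL/6J mice, adults of 4 to 6 months, either with a conditional knockout of Setd1b (cKO) or control. RNA-seq covered neurons (3 cKO and 3 control libraries) and whole CA tissue (6 and 6). ChIP-seq covered H3K4me3 and H3K4me1 (4 cKO and 4 control libraries each), H3K27ac (4 and 3) and H3K9ac (3 and 4) in neurons. The labels name neither the Cre driver nor the sex of the animals, and they do not say whether a library is 1 animal or a pool, so p-values measure the spread between these libraries only.

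COMPASS complexes place methyl groups on lysine 4 of histone H3, the mark of active gene starts when trimethylated and of enhancers when monomethylated. Each complex is built on 1 catalytic enzyme (Setd1a, Setd1b or a member of the Kmt2 family) held on a shared core of Wdr5, Rbbp5, Ash2l and Dpy30, without which the enzymes have little activity. Further subunits set the complexes apart: Cxxc1 and Wdr82 in the SET1 complexes that contain Setd1b, Men1 in those of Kmt2a and Kmt2b, and Paxip1 and Kdm6a in those of Kmt2c and Kmt2d. Hcfc1 is found in SET1 and in Kmt2a and Kmt2b complexes. The genes lie in the mouse genome (GRCm38.p6) as follows: Wdr5 at chr2:27515147-27536535, Rbbp5 at chr1:132477348-132505665, Ash2l at chr8:25816000-25847694, Dpy30 at chr17:74299474-74323944, Wdr82 at chr9:106170925-106191706, Men1 at chr19:6334979-6340894, Paxip1 at chr5:27740080-27791672, Cxxc1 on chromosome 18, and Hcfc1 and Kdm6a at chrX:73942792-73966995 and chrX:18160862-18279936.

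Depth was 55.7 to 69.1 M counted reads per library for neuron RNA and 14.9 to 20.1 M for whole CA RNA. Setd1b itself, the targeted gene, did not have fewer counts in libraries labelled cKO. In neurons it was at 59.9, 62.6 and 72.0 CPM (reads scaled by library size to 1 M, with no TMM factor, which enters the fitted fold changes) in cKO and at 65.4, 49.7 and 47.6 CPM in controls (log2 difference 0.25, adjusted p = 0.361 by edgeR). In whole CA RNA it was higher in cKO, at 54.6 to 67.6 against 29.5 to 54.4 CPM (log2 difference 0.59, adjusted p = 0.00415 by edgeR). Counts over the whole gene need not show the loss of a deleted exon, and which part is deleted is not given in the sources used here, so genotype rests on the labels throughout. Whole CA cKO replicate 6 and control replicate 4 carried Xist (484 and 596 CPM) and almost no counts of 4 Y-linked genes. The other 10 whole CA libraries showed the opposite, and all 6 neuron RNA libraries carried both. Among the H3K4me3 libraries, that of control replicate 4 had no peak at the starts of the Y-linked genes Uty, Ddx3y, Eif2s3y and Kdm5d, and that of cKO replicate 4 had none at Xist. Of 5 dentate granule cell markers 3 were called lower in cKO neurons, where 2.75% of all genes were called in either direction. In the whole tissue 2 were called lower, beside 2.79% of all genes. Prox1 was not called in either, at a log2 fold change of -0.02 in neurons and -0.35 in whole CA (adjusted p = 0.93 and 0.145 by edgeR). Pdzd2 was not called either. The summed level of the 5 markers ran from 155 to 201 against 229 to 270 CPM in neuron RNA and from 59.8 to 112 against 112 to 146 CPM in whole CA RNA. Neurod6, a pyramidal neuron gene, was lower in cKO in both (log2 fold change -2.24 and -1.78, adjusted p = 2.96e-05 and 1.48e-07 by edgeR). The part of these differences in the results was not tested.

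The first comparison asked whether loss of Setd1b came with a change in the RNA of its complex partners. In neuron RNA none of the 10 genes passed the test (edgeR quasi-likelihood test, adjusted p under 0.05), where 2.75% of the 19622 genes tested did. In whole CA RNA none of the 10 passed, where 4.17% of 15362 genes did. None reached an unadjusted p under 0.05 in either material, a level passed by 17.2% and 15.7% of all genes, and DESeq2 called none either. The log2 fold changes of the 10 ran from -0.18 to 0.18 in neuron RNA (median -0.02, all genes 0.02) and from -0.06 to 0.12 in whole CA RNA (median 0.01, all genes 0.00). Within the 2 sequencing lanes of the whole CA libraries (replicates 1 to 3 and 4 to 6) they ran from -0.08 to 0.12 and from -0.11 to 0.13, and none was called.

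**Figure D1:**
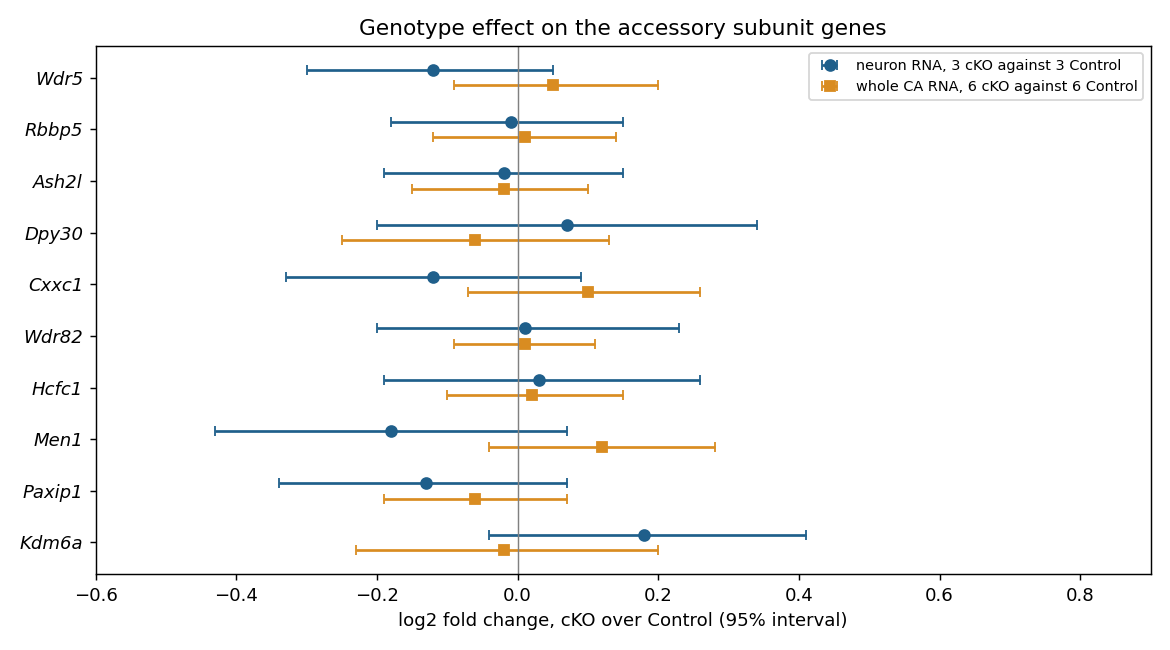
Log2 fold change of cKO over control for each of the 10 genes (x axis) with its 95% interval from the edgeR fit, in neuron RNA (circles, 3 against 3 libraries) and whole CA RNA (squares, 6 against 6). All 20 intervals include 0, and the widest, that of Dpy30 in neuron RNA, runs from -0.20 to 0.34.

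Of the shared core, Wdr5, the WD40 protein that binds the enzymes' Win motif, was at 45.1, 43.5 and 44.5 CPM in the 3 neuron libraries labelled cKO and at 50.1, 47.3 and 46.6 CPM in the controls. It was the only member whose neuron genotypes did not overlap, all cKO values being below all controls. Of all genes tested 11.1% lay below in the same way. With TMM factors in the CPM, Wdr5 again separated (12.4% of all genes below) and no other member did in either material. The fitted log2 fold change of Wdr5 was -0.12 (SE 0.08, 95% interval -0.30 to 0.05, adjusted p = 0.445 by edgeR). In whole CA RNA Wdr5 ran from 27.4 to 38.2 CPM in cKO (median 31.6) and from 27.9 to 32.8 CPM in controls (median 30.3). These groups overlapped, and so did those of the other members in whole CA RNA, where 3.21% of all genes separated.

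Rbbp5, which with Ash2l activates the catalytic domain, was among the steadiest members in neurons. Its neuron CPM was 82.4, 80.0 and 81.2 in cKO and 79.9, 80.0 and 83.8 in controls, a log2 fold change of -0.01 (95% interval -0.18 to 0.15). Its whole CA medians were 52.4 CPM in cKO and 51.4 CPM in controls. Ash2l gave 103, 99.6 and 98.3 CPM in cKO neurons and 100, 102 and 101 CPM in controls, and its coefficient of variation over the 3 control libraries was 0.84%. Its log2 fold changes were -0.02 in both materials, with 95% intervals of -0.19 to 0.15 and -0.15 to 0.10. Dpy30, a small protein that binds Ash2l as a dimer, was at 4.08, 5.09 and 4.86 CPM in cKO neurons and at 4.26, 4.31 and 4.65 CPM in controls. The Dpy30 genotypes overlapped, with a log2 fold change of 0.07 (95% interval -0.20 to 0.34).

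Of the SET1-specific subunits, Cxxc1, which binds unmethylated CpG and trimethylated H3K4, was at 106, 95.3 and 99.0 CPM in cKO neurons and at 119, 99.1 and 106 CPM in controls. The groups overlapped, and the log2 fold change was -0.12 (SE 0.09, adjusted p = 0.541 by edgeR). The sign was the other in whole CA RNA, at 0.10 (SE 0.08, adjusted p = 0.645 by edgeR). Wdr82, which ties SET1 complexes to the phosphorylated tail of RNA polymerase II, was at 99.1, 123 and 119 CPM in cKO neurons and at 108, 115 and 112 CPM in controls. Its log2 fold change was 0.01 in both materials, with 95% intervals of -0.20 to 0.23 and -0.09 to 0.11.

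Hcfc1, a chromatin scaffold that is cleaved by the O-GlcNAc transferase, was at 145, 134 and 156 CPM in cKO neurons and at 157, 129 and 136 CPM in controls. Its log2 fold changes were 0.03 and 0.02 in the 2 materials. Men1 encodes menin, which anchors the Kmt2a and Kmt2b enzymes on chromatin. It was at 72.0, 71.8 and 81.0 CPM in cKO neurons against 97.9, 78.7 and 75.7 CPM in controls, where control replicate 1 was the high one. In whole CA RNA the order was the other, with medians of 52.1 CPM in cKO and 48.4 CPM in controls and overlapping groups.

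The Men1 log2 fold changes were -0.18 (SE 0.11) for neurons and 0.12 (SE 0.07) for whole CA. The difference between these effects was -0.29 (SE 0.13, unadjusted p = 0.036, adjusted p = 0.595 by edgeR) and was -0.17 without neuron control replicate 1. None of the 10 genes passed this test of the difference, which 0.16% of 17523 genes passed, and Men1 alone was under an unadjusted p of 0.05 where 8.11% of all genes were.

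Of the subunits of the Kmt2c and Kmt2d complexes, Paxip1, a BRCT-domain protein also active in DNA repair, was at 65.7, 66.2 and 71.7 CPM in cKO neurons and at 81.8, 71.1 and 68.0 CPM in controls. Its log2 fold change was -0.13 (95% interval -0.34 to 0.07), and -0.06 (-0.19 to 0.07) in whole CA RNA. Kdm6a, an X-linked demethylase of H3K27, was at 101, 100 and 91.8 CPM in cKO neurons and at 75.9, 95.5 and 84.3 CPM in controls. The highest control lay above the lowest cKO library, and the log2 fold change of 0.18 (SE 0.10, adjusted p = 0.392 by edgeR) was the highest of the 10 in neuron RNA. In neurons, control replicate 1 was at an end of the 3 control values for all 10 members. It was highest for Wdr5, Cxxc1, Hcfc1, Men1 and Paxip1 and lowest for Rbbp5, Ash2l, Dpy30, Wdr82 and Kdm6a. Of 3 values only the middle one is not at an end, so for any single gene an end place is common. How often all 10 members would share it was not computed. The share over all genes was not counted, and the order is a description only.

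**Figure D2:**
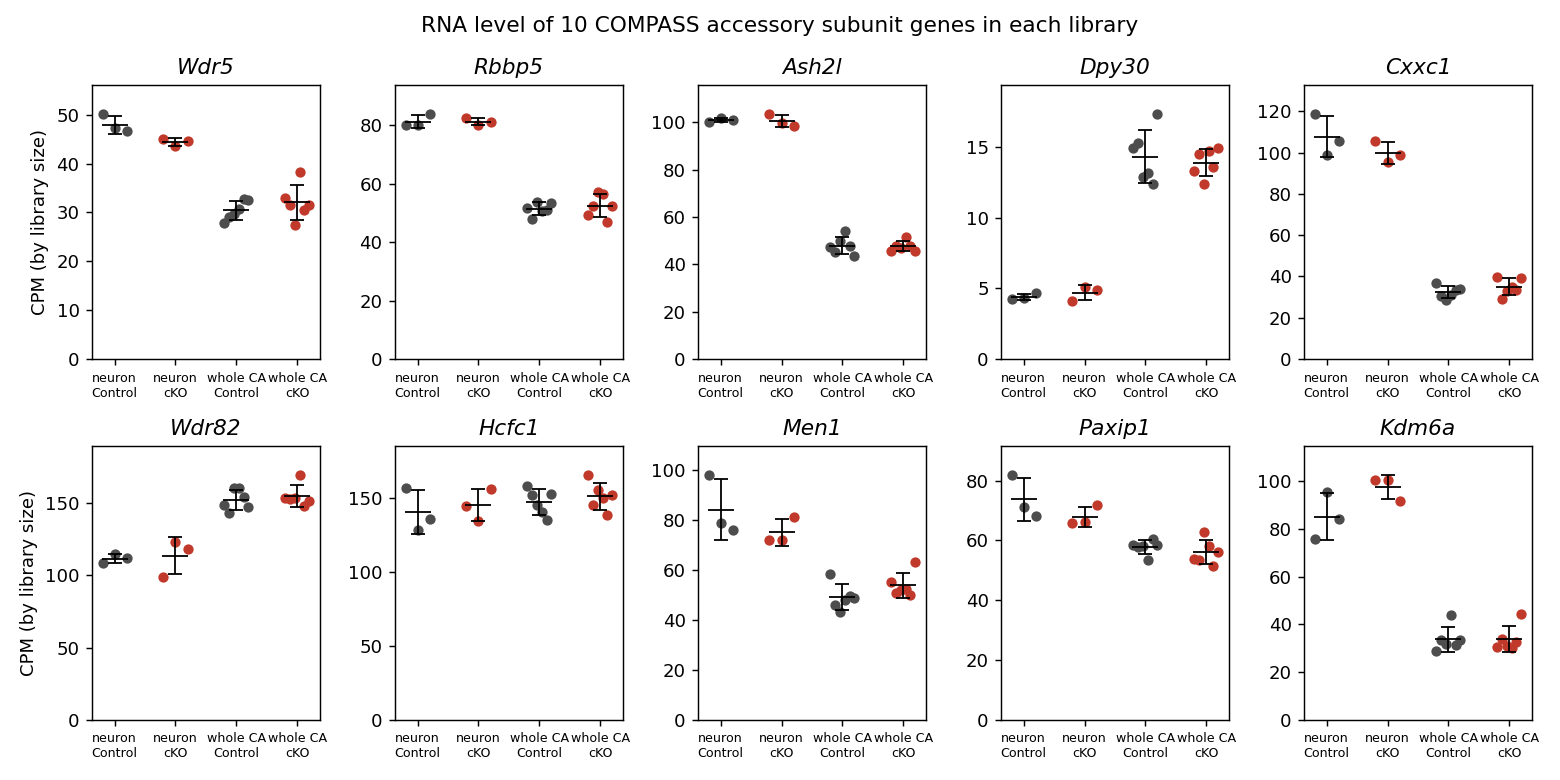
CPM (y axis, from 0) of each of the 10 genes in every RNA library, by material and genotype. Points are libraries (3 or 6 per group), bars the mean ± SD. Control (grey) and cKO (red) points overlap in every panel and material apart from Wdr5 in neurons, while the 2 materials lie apart for most genes.

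Whole CA Kdm6a stood out for 2 libraries and not for genotype. It was at 44.6 CPM in cKO replicate 6 and at 44.0 CPM in control replicate 4, the 2 libraries with Xist, and from 28.8 to 34.0 CPM in the other 10. The genotype difference was -0.02 (SE 0.10) over all 12 libraries, -0.02 (SE 0.06) with the Xist class as a term and -0.01 (SE 0.07) over the 10 libraries with Y-linked counts. Kdm5c, an X-linked H3K4 demethylase, had its highest values in the same 2 libraries, at 84.5 and 88.1 CPM against 55.5 to 71.3 CPM in the others. Ddx3x, an X-linked RNA helicase, was at 339 and 336 CPM there against 259 to 308 CPM. Eif2s3x, at 7.36 and 10.2 CPM there, overlapped the 4.34 to 7.74 CPM of the others. Kdm6a, Kdm5c, Ddx3x and Eif2s3x are genes known to escape X inactivation in the mouse. Hcfc1, also X-linked, was at 152 and 141 CPM in those 2 libraries, within the 135 to 166 CPM of the others. Since these 2 libraries were singled out by their own counts, the levels are a description and were not tested.

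**Figure D3:**
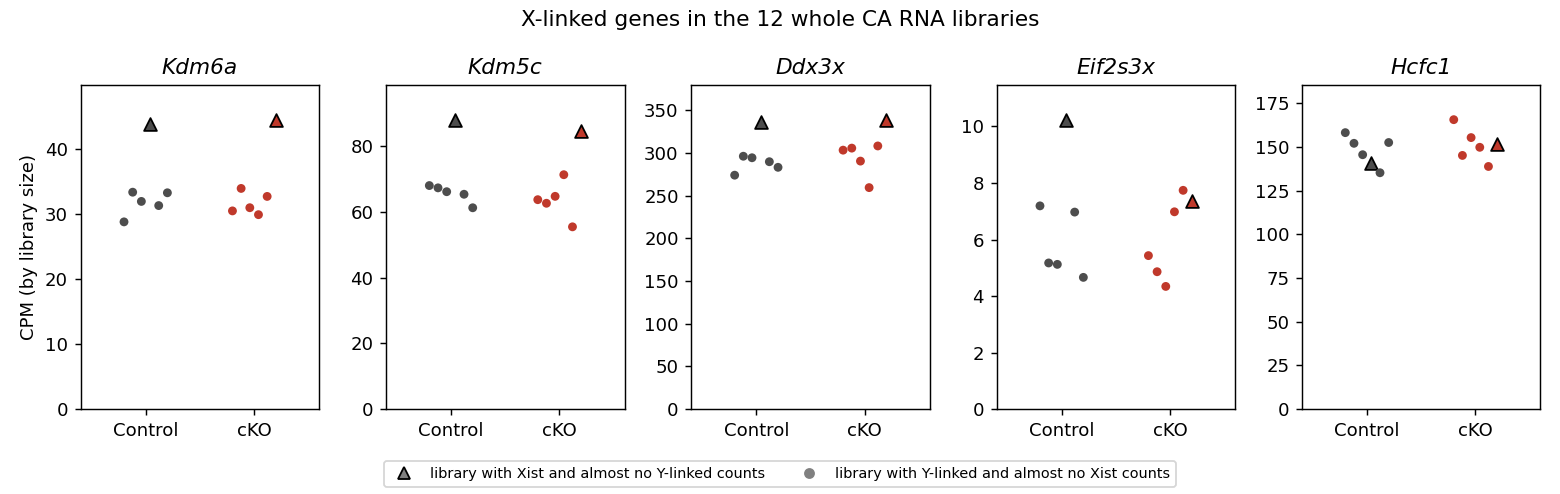
CPM (y axis, from 0) of 5 X-linked genes in the 12 whole CA RNA libraries, by genotype. Triangles mark the 2 libraries with Xist and almost no Y-linked counts; they are the highest of their group for Kdm6a, Kdm5c and Ddx3x, and for Hcfc1 they lie among the circles.

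Most of the 10 genes differed more between materials than between genotypes. In control libraries all 10 passed the test of neuron RNA over whole CA RNA, 7 higher and 3 lower, where 83.6% of 16859 genes passed, 43.6% higher and 40.1% lower. Their median log2 fold change was 0.49, beside 0.07 for all genes tested. Cxxc1 was 2.97-fold higher in neuron RNA (log2 1.57, SE 0.08, adjusted p = 3.23e-11 by edgeR), at 99.1 to 119 CPM in control neurons and 28.7 to 36.6 CPM in control whole CA. Kdm6a was 2.25-fold higher (log2 1.17, SE 0.11) and Ash2l 1.88-fold higher (log2 0.91, SE 0.07). Men1, Rbbp5 and Wdr5 were 1.54-, 1.41- and 1.41-fold higher.

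Dpy30 went furthest the other way, at 4.26 to 4.65 CPM in control neurons and 12.4 to 17.3 CPM in control whole CA (log2 -1.86, SE 0.13, adjusted p = 6.99e-10 by edgeR). Wdr82 was lower in neuron RNA by a log2 of -0.61 (SE 0.07), from 143 to 160 CPM in whole CA to 108 to 115 CPM. Of the 4 core subunits, Wdr5, Rbbp5 and Ash2l were thus higher in neuron RNA and Dpy30 lower, and of the SET1-specific pair Cxxc1 was higher and Wdr82 lower. These calls held in all 17 alternatives run, which include library size in place of TMM scaling. Hcfc1 was at -0.23 (SE 0.08, adjusted p = 0.0134 by edgeR) and Paxip1 at 0.19 (SE 0.08, adjusted p = 0.0305 by edgeR). Library size alone moves the median of all genes from 0.07 to 0.23. Hcfc1 was then at -0.07 (adjusted p = 0.439 by edgeR), and Paxip1 was at 0.11 (adjusted p = 0.183 by edgeR) without neuron control replicate 1. Of the 17 alternatives Hcfc1 was called in 13 and Paxip1 in 9, in the same direction in all.

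The cKO libraries, which that comparison did not use, gave the same direction for all 10 genes, and 9 passed, where 83.1% of all genes did. Cxxc1 was at a log2 fold change of 1.35, Kdm6a at 1.36, Ash2l at 0.91, Wdr82 at -0.62 and Dpy30 at -1.74. Paxip1, at 0.11 (SE 0.08, adjusted p = 0.225 by edgeR), did not pass. Material cannot be told apart from RNA preparation and sequencing run. The sex-linked counts differed with it too. All neuron RNA libraries carried both Xist and Y-linked counts, while each whole CA library carried hardly any of the one or the other. The part of this in the difference of Kdm6a between materials was not tested. The summed CPM of 5 astrocyte markers was 25.3 to 31.8 in control neuron RNA and 1440 to 1690 in control whole CA RNA, all 20 glial and endothelial markers were lower in neuron RNA, and the mitochondrial share of reads was 0.0081 to 0.0144% against 3.41 to 7.05%. The summed CPM of 5 excitatory neuron markers was also lower, at 2740 to 3270 in control neuron RNA and 6520 to 7230 in control whole CA RNA. Their part in the members' differences was not tested, and in such bulk samples fewer cells of a type and less RNA per cell cannot be told apart.

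The other COMPASS genes were read from a list of 15, of which 14 could be tested. None passed the test of genotype in neuron RNA. The 2 with the largest log2 fold changes there were Ncoa6, a coactivator in Kmt2c and Kmt2d complexes, at 0.21 (SE 0.08, adjusted p = 0.244 by edgeR), and Wdr5b, a Wdr5 paralog, at -0.15 (SE 0.14). In whole CA RNA 1 of 14 fell in cKO, beside 2.79% of all genes: Hcfc2, a paralog of Hcfc1, had a log2 fold change of -0.24 (SE 0.06, adjusted p = 0.0417 by edgeR), at 42.3 to 45.1 CPM in cKO and 45.1 to 59.3 CPM in controls. This call held in 2 of 12 fits that left out a library, with edgeR adjusted p from 0.0285 to 0.13. The other of the 2 largest was Setd1a, at 0.14 (SE 0.08). Between materials 11 of 14 were higher in control neuron RNA and Bod1 was lower. The 2 largest differences were those of Kmt2a, at 1.58 (SE 0.10), and Kmt2b, at 1.23 (SE 0.10).

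Across the 12 whole CA libraries, each member's log2 CPM (here with TMM factors) was compared with that of every other gene tested, as a description over libraries that share genotype groups, lanes and depth. For Men1 the 3 highest Pearson correlations were 0.96 with Creld1, Tada3 and Fastk. Wdr5 went with Surf1 (0.94), Lzic (0.85) and Rpl4 (0.81), Cxxc1 with Pitpnm2 (0.95), Nphp4 (0.92) and Elfn2 (0.92), and Paxip1 with Ing1 (0.91), Upf2 (0.85) and Sap30l (0.84). Hcfc1 went with Atf7ip (0.89) and Safb2 (0.89), Ash2l with Nt5dc3, Synj1 and Slc9a7 (all 0.90), and Dpy30 with Dock5 (0.90), 1700109K24Rik (0.89) and Pla2g4a (0.87). Rbbp5 went with Anp32b, Cnpy4 and Knop1 (all 0.87), and Wdr82 with Prr14l (0.86), Gle1 (0.83) and Ogfod1 (0.82). Kdm6a went with Mcf2 (0.87), followed by Pisd (0.85) and Ddx3x (0.83). Over the 10 libraries without Xist these values of Kdm6a were 0.84, 0.56 and 0.74, and those of Ash2l with Nt5dc3, Synj1 and Slc9a7 were 0.83, 0.77 and 0.88. All these genes were picked as the highest of many over 12 libraries, so the values are high in part by selection. No reference level was computed.

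The gene starts themselves carry the mark that the complexes write, so the peak lists were read at the starts of the 8 members found in the RefSeq promoter table (GRCm38.p6, the build of the peak files). The sequences are shown for 3 members whose H3K4me3 cover differed between genotypes (Wdr82, Kdm6a and Hcfc1) and for 2 where it did not pass the test (Wdr5 and Rbbp5). Each is the 250 bases before the start listed there, 5′ to 3′ on the gene's own strand. CpG dinucleotides, the site that the CXXC domain of Cxxc1 binds, are in capitals. For Kdm6a and Hcfc1 the whole stretch lies inside the gene's span, and the starts of Wdr82 and Rbbp5 lie just inside theirs. The stretches are chr9:106170679-106170928 (plus strand), chrX:18162325-18162574 (plus strand), chrX:73966358-73966607 (minus strand), chr2:27514897-27515146 (plus strand) and chr1:132477117-132477366 (plus strand).
Wdr82: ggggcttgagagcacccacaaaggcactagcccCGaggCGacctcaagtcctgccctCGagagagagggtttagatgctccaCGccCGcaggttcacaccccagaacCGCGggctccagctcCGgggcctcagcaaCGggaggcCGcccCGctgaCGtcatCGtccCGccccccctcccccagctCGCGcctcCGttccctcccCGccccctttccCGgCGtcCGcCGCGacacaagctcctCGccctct
Kdm6a: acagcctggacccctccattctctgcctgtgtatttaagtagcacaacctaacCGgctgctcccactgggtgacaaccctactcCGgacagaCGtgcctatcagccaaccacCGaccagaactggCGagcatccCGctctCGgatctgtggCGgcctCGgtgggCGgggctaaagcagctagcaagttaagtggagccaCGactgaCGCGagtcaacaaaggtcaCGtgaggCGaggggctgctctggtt
Hcfc1: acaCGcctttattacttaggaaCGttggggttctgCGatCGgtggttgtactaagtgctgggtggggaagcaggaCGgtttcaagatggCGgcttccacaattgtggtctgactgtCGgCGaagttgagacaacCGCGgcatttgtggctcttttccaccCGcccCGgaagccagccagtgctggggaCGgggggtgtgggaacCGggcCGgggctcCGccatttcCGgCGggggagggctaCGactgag
Wdr5: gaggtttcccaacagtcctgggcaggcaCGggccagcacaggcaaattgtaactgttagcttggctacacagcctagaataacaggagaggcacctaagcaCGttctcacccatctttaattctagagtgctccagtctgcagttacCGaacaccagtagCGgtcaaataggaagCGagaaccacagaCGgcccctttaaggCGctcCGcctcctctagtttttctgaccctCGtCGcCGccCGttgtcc
Rbbp5: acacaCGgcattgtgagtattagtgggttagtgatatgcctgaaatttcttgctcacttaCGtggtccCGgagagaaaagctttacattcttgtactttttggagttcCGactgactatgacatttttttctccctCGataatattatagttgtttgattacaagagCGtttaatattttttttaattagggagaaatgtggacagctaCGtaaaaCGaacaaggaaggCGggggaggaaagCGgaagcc

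The Wdr82 stretch holds 24 CpG, that of Kdm6a 15, of Hcfc1 19, of Wdr5 12 and of Rbbp5 10. Over the 300 bases of each table entry, which adds 50 bases after the start, the 8 members held from 16 CpG (Rbbp5 and Men1) to 39 (Dpy30), against a median of 7 over 32851 promoters. As many CpG as Dpy30 were found in 4.4% of promoters and as many as Wdr82 in 14.2%. The GC content ran from 44.0% for Rbbp5 to 72.0% for Dpy30.

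In all, 4 motifs were searched on both strands of the 300 bases. The YY1 core AAGATGGCG, held by 1.4% of promoters, occurred in Hcfc1, starting 168 bases before and 24 bases after the start, and in Wdr82, 18 bases after it. The upstream Hcfc1 match lies in the stretch shown. The NRF1 core GCGCATGCG (1.75% of promoters) occurred in Paxip1, on both strands at overlapping positions, the NF-Y box CCAAT (37.4%) in Men1, and the ETS core CCGGAAGT (3.89%) in none. A match is a description of letters.

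H3K4me3 cover, the number of bases under H3K4me3 peaks within 5 kb of a start, was shorter in cKO at 4 of the 8 member starts (limma, adjusted p under 0.05), where 27.2% of 16151 gene windows were shorter and 28.7% were called in either direction. Among the 6973 windows in the members' control range of 2018 to 4341 bp, 39.3% were shorter, and the members' count is to be read against that share. No member was longer, where 1.48% of windows were. All 8 starts had a peak in all 8 libraries.

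Wdr82 had the largest difference of the 8, with 4032, 3906, 4067 and 4076 bp in the 4 control libraries and 3022, 2712, 2854 and 2704 bp in the cKO libraries. Every cKO value was below every control. The means were 4020 ± 78.5 and 2823 ± 149 bp (SD, n = 4 each), a change of -29.8% (log2 -0.50, SE 0.05, limma adjusted p = 0.000251; exact permutation p = 0.0286, the smallest that 4 against 4 allows). Kdm6a had 3833, 3687, 3872 and 3941 bp in controls and 3179, 3413, 3404 and 3300 bp in cKO (log2 -0.20, SE 0.04, limma adjusted p = 0.00757). Hcfc1 had 4185, 4228, 4303 and 4648 bp in controls and 3699, 3867, 3939 and 3725 bp in cKO (log2 -0.18, SE 0.05, limma adjusted p = 0.0197). For both genes the groups did not overlap.

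At Men1 the controls had 2718, 2993, 3017 and 3359 bp and the cKO libraries 2134, 2667, 2392 and 2501 bp (log2 -0.31, SE 0.08, limma adjusted p = 0.0292). The highest cKO value lay just under the lowest control, and this call held in 2 of the 8 fits that left out a library (limma adjusted p from 0.0211 to 0.0677). Hcfc1 was called in 7 of those 8 fits, its limma adjusted p being 0.0559 without cKO replicate 4, and Wdr82 and Kdm6a in all 8. The replicate block ended the call of Hcfc1 (limma adjusted p = 0.0627). Paxip1 also separated, at 2946 to 3281 bp in controls and 2669 to 2943 bp in cKO, and its adjusted p was 0.0505 (log2 -0.15, SE 0.05). Windows with all cKO values below made up 30.4% of all, and 5 of the 8 members were among them. That share is over windows of any length. In the members' control range 39.3% were called shorter, against 27.2% of all windows, so 30.4% is a low reference for the members. Without the libraries numbered 4, which were sequenced in another lane and include the ones without Y-linked or Xist peaks, Wdr82 alone was called (log2 -0.47, limma adjusted p = 0.00558). Kdm6a was then at -0.18 (0.0668), Hcfc1 at -0.14 and Men1 at -0.27 (both 0.107).

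The core subunits Wdr5 and Rbbp5 gave the flattest values. Wdr5 had 2642, 2810, 2937 and 2966 bp in controls and 2601, 3008, 3054 and 2686 bp in cKO, a log2 difference of 0.00 (95% interval -0.16 to 0.15). Rbbp5 had 2464 ± 195 bp in controls and 2480 ± 127 bp in cKO (SD, n = 4 each), a log2 difference of 0.01 (95% interval -0.14 to 0.16), in a window that also holds the start of 6030442K20Rik. Dpy30, whose window joins 4 listed starts, was at 2018 ± 101 and 1872 ± 74.9 bp with overlapping groups (log2 -0.10, limma adjusted p = 0.167).

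**Figure D4:**
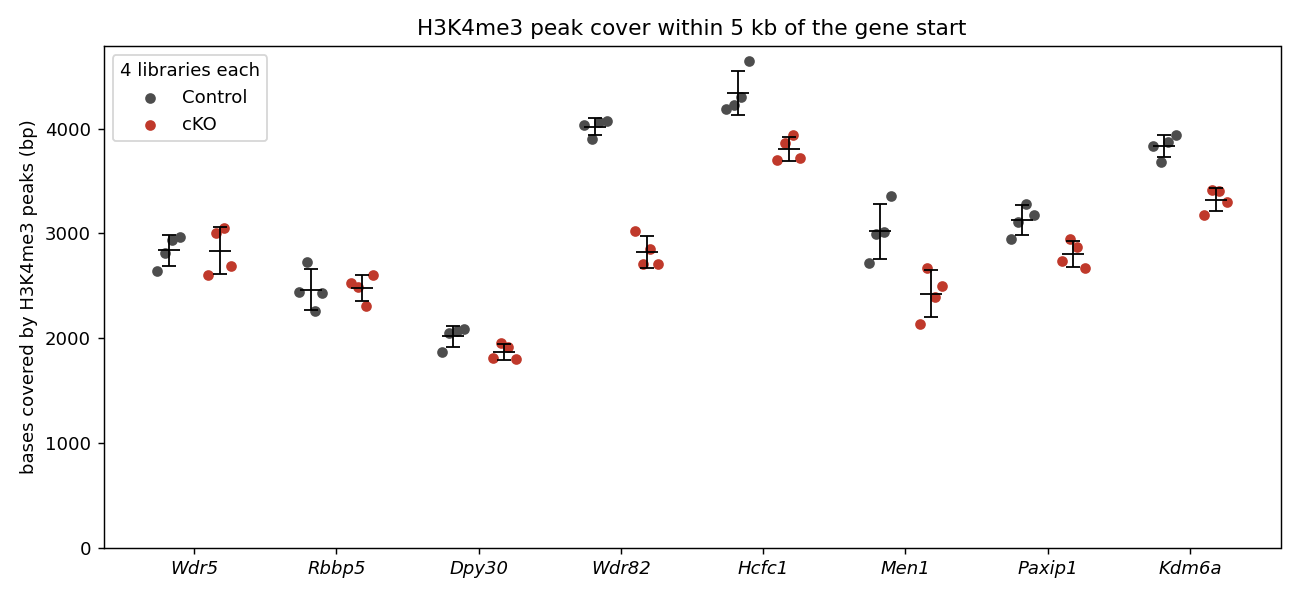
Bases covered by H3K4me3 peaks within 5 kb of the start (y axis, bp, from 0) for the 8 members, in 4 control (grey) and 4 cKO (red) libraries. Points are libraries and bars the mean ± SD; the groups separate for Wdr82, Hcfc1, Men1, Paxip1 and Kdm6a, and overlap for Wdr5, Rbbp5 and Dpy30.

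The 2 sides of each start were then taken apart. Where the genotypes separated, at Wdr82, Kdm6a, Hcfc1 and Men1, it was on the downstream side. For every member but Wdr5 the start used lies inside the gene's span, so the upstream side also holds bases of the gene. At Wdr82 and Rbbp5 these are few, and at Dpy30 the whole upstream side lies in the gene. Downstream of the Wdr82 start the controls had 3334, 3211, 3262 and 3378 bp and the cKO libraries 2217, 1991, 1979 and 1849 bp. Upstream of it they had 695 to 805 bp and 721 to 875 bp. Between 2 and 5 kb downstream, cover was 1296 ± 74.3 bp in controls and 54.2 ± 108 bp in cKO (SD, n = 4 each), while the first 2 kb were covered over 2000 and 1955 bp. Kdm6a had 2594 to 2789 bp downstream in controls and 2108 to 2284 bp in cKO, Hcfc1 2239 to 2673 bp and 1746 to 2002 bp, and Men1 2179 to 2433 bp and 1652 to 2005 bp.

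For Wdr82, Kdm6a, Hcfc1 and Men1 all downstream cKO values were below the controls (exact permutation p = 0.0286 each, 0.114 after Benjamini-Hochberg adjustment over the 16 sides of 8 starts), and upstream the groups of all 8 members overlapped. Paxip1 differed by -254 bp downstream and -71.5 bp upstream, and Wdr5 by 5.25 and -6.75 bp. The members with 1 listed start set a control length range, which held 3840 genes with a single start. Of these, all cKO values lay below downstream in 49.5% and upstream in 18.3%, with median differences of -255.5 and -33.1 bp. Men1, with 3 listed starts, and Dpy30, with 4, did not set that range. Separation on the downstream side was thus common at starts of this length. A window of 2 kb to each side leaves most of it out, and no member was called in it, with Wdr82 at 0.02 and Kdm6a at 0.00. The split by side was chosen after the data were seen.

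**Figure D5:**
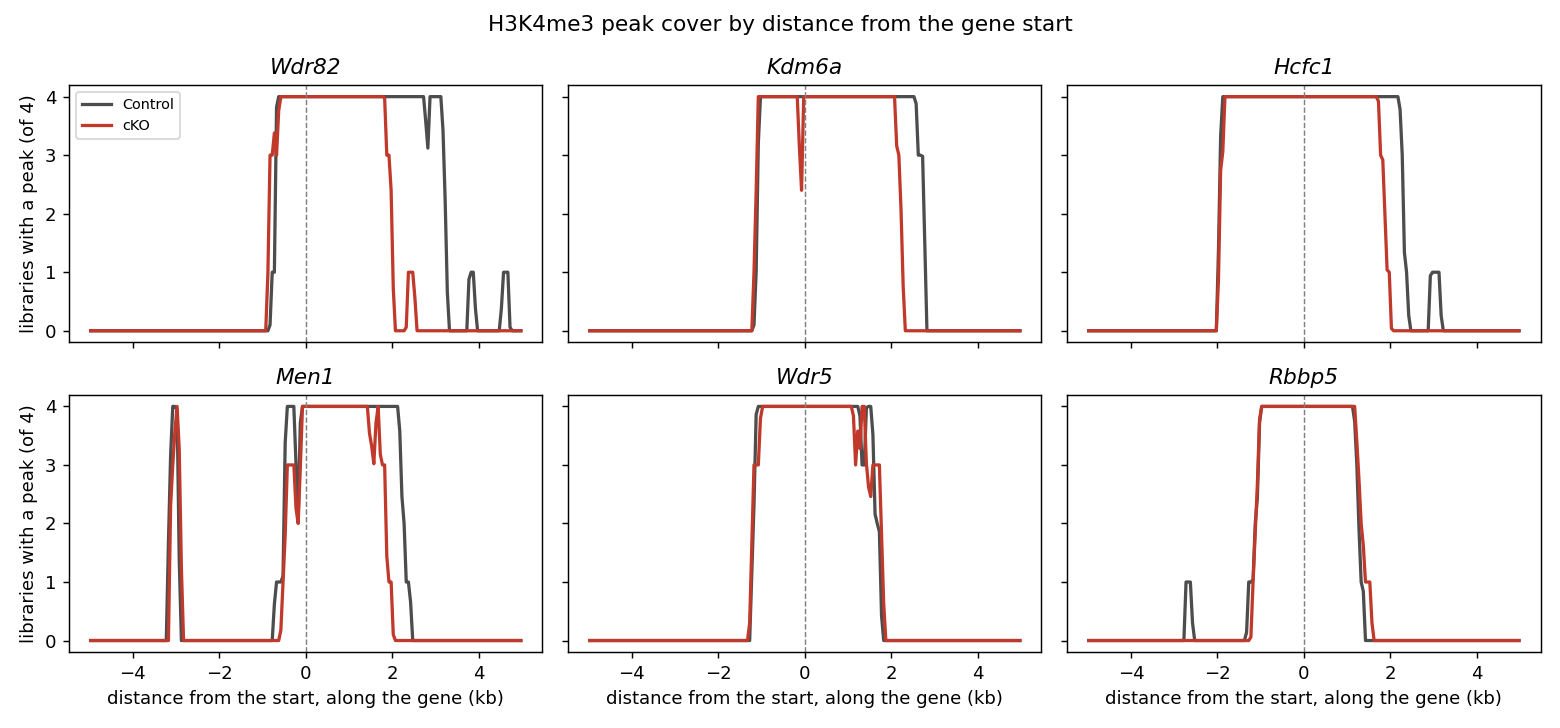
Number of libraries of 4 with an H3K4me3 peak (y axis) by distance from the gene start along the gene (x axis, kb), mean over 50 bp bins, for 6 members in control (grey) and cKO (red). The upstream edges nearly coincide, and the downstream edge is nearer to the start in cKO at Wdr82, Kdm6a, Hcfc1 and Men1.

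The other marks were measured in the same windows. For H3K4me1, 1 of 8 members was called, Men1, where 6.63% of 20205 windows were. It had 4527, 4246, 4987 and 4303 bp in controls and 2407, 3652, 2461 and 2547 bp in cKO (log2 -0.71, SE 0.15, limma adjusted p = 0.0326), and the call held in 1 of 8 fits that left out a library. The replicate block ended it (limma adjusted p = 0.104), and the sign turned in windows of 2 kb (log2 0.28) and at a −log10 q of at least 5 (log2 1.02), neither of them called. At Hcfc1 the H3K4me1 cover was 2799 to 4567 bp in controls and 501 to 2220 bp in cKO, without overlap (log2 -1.36, SE 0.41, limma adjusted p = 0.0941). These were 2 of 8 members with all cKO values below, beside 11.7% of windows.

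No member was called for H3K27ac (0.386% of 16078 windows) or H3K9ac (1.62% of 16524), by limma. At an unadjusted p under 0.05, which 14.6% of H3K27ac and 19.1% of H3K9ac windows reached, were Paxip1 for H3K27ac (log2 -0.36, limma adjusted p = 0.303), and Wdr82 (log2 -0.33, limma adjusted p = 0.184) and Kdm6a (log2 -0.25, limma adjusted p = 0.227) for H3K9ac. H3K9ac cover at Wdr82 was 2753 to 3733 bp in 4 control libraries and 2432 to 2482 bp in 3 cKO libraries, without overlap (exact permutation p = 0.0571, the smallest this design allows). At Kdm6a it was 2772 to 3337 bp and 2348 to 2687 bp, and at Men1 4357 to 5092 bp and 2987 to 4348 bp, also without overlap, beside 15.2% of windows with all cKO values below. H3K27ac cover lay below the controls without overlap at Hcfc1 alone, at 3559 to 3687 bp and 2924 to 3506 bp, beside 11.5% of windows.

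Side by side, the 4 members with shorter H3K4me3 cover had log2 fold changes in neuron RNA of 0.01 (Wdr82), 0.18 (Kdm6a), 0.03 (Hcfc1) and -0.18 (Men1), none of which passed the test. For Wdr82, the member start with the largest difference in cover, the 95% interval of the RNA difference ran from -0.20 to 0.23.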

How the data were processed

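Per the labels, RNA-seq measured 18 libraries and ChIP-seq 30. The RNA files hold counts per Ensembl gene, deposited by the authors; the counter is not given in the sources used here. The labels' protocols name TRIZOL extraction and TruSeq v2 libraries for RNA from whole tissue, and sorted fixed nuclei for chromatin; how neuron RNA was extracted is not given. Peaks were called with MACS2 (2.1.1.20160309 for H3K4me3, 2.1.0.20140616 for the other marks), per library against 1 input per genotype at a q cutoff of 0.1, per the file headers. The authors' peak files give pileup signal, fold enrichment (a ratio), −log10 p and −log10 q, used here only to filter peaks and to choose a reference start. The builds named by the submitters' processing notes are mm10 and GRCm38.

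Symbols were found for 99.3% of neuron and 98.9% of whole CA identifiers. Counts were tested with edgeR 4.0.16 (TMM, filterByExpr, quasi-likelihood test, Benjamini-Hochberg adjustment over all genes); DESeq2 1.42.0 was an alternative. Printed CPM are by library size. All 10 members passed the filter. Cover was log2(bp + 100) in windows of 5 kb around RefSeq starts with a peak in at least 3 libraries, tested with limma 3.58.1. These fits were tested on simulated data. The named genes are the 10 members, Setd1b, the called and the 2 largest of 15 other COMPASS genes, sex-linked genes, and the 3 genes most like each member, of which 1 is not reported here. Members and lists were chosen with earlier results of these data known. Alternatives were other scalings, filters, thresholds, windows, lanes, a sex term, a replicate block and leaving out each library. Deviations of same-numbered libraries from their group means had correlations from -0.10 to 0.29. The labels do not say whether the numbers pair animals, and these correlations cannot decide it. The main fits left the libraries unpaired, with the replicate block as an alternative. ChIP depth was 24.4 to 41.6 M tags per library.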

Additional observations from a re-analysis of the deposited data

Results flagged for a closer look

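Of 68 groups of 4 to 6 libraries checked, 6 held a value far from the others of its group; chance alone gives this in about 1 of 20 groups. Whole CA Kdm6a was at 44.6 CPM in cKO replicate 6 (next 34.0 CPM) and at 44.0 CPM in control replicate 4 (next 33.4 CPM), the 2 libraries with Xist. Whole CA cKO replicate 4 was highest of its group for Ash2l (51.6 CPM, next 47.9) and for Wdr82 (170 CPM, next 154). With TMM factors the highest cKO values of these genes were 49.5 and 162 CPM, beside highest controls of 53.7 and 162 CPM. H3K4me1 cover at Hcfc1 was 4567 bp in control replicate 1 (next 2852 bp), and at Men1 it was 3652 bp in cKO replicate 2 (next 2547 bp). Without cKO replicate 2 the Men1 difference in H3K4me1 cover had a limma adjusted p of 0.00825.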

How the results depend on the processing

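No member was called for genotype in neuron or whole CA RNA, or for the difference between them, under any alternative run (13, 24 and 23). Counts over all genes moved more. Neuron RNA calls were 539, 930 at an adjusted p under 0.1, 833 by DESeq2, 327 with the replicate block and 207 to 482 when a library was left out. Whole CA calls were 640, 207 and 224 within lanes (replicates 1 to 3 and 4 to 6), and 467 to 669 with a library left out. Differences between the effects were 28, 69 with no filter, and 18 to 32. Between materials 9 to 10 members were called with a control library left out (13635 to 14075 genes), and 158 of 170 values of single members kept direction and call.

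H3K4me3 calls were 4633, 2284 in 2 kb windows, 2991 without libraries numbered 4 and 3709 to 4728 with a library left out; members called were 4, 0, 1 and 2 to 5. In 2 kb windows, which leave out cover further from the start, Wdr82 (log2 0.02, limma adjusted p = 0.669) and Kdm6a (log2 0.00, limma adjusted p = 0.953) were not called. H3K4me1 calls were 1339, 301 in 2 kb windows, 325 at a −log10 q of at least 5, 7 with the replicate block, 405 without libraries numbered 4, and 785 to 1238; the 1 member called was 0 in 2 kb windows, with the block and without libraries numbered 4, and 0 to 1. For H3K4me1, Men1 was at 0.28 in 2 kb windows and 1.02 at the stricter q. Rbbp5 was called longer in cKO at the stricter q (log2 4.35, limma adjusted p = 0.000174), against -0.37 and no call in the main fit. The direction over all windows turned as well. At the stricter q 321 of the 325 calls were longer, and in 2 kb windows 214 of 301, where the main fit had 1067 shorter and 272 longer. The cause was not tested. H3K27ac calls were 62, 0 with the block, 0 without libraries numbered 4, 34 with lane as a term, and 1 to 75. H3K9ac calls were 268, 79 in 2 kb windows, 0 with the block, 2 without libraries numbered 4, 75 with lane as a term, and 8 to 246. The block ended the H3K4me3 call of Hcfc1 (log2 -0.18, limma adjusted p = 0.0627). The alternatives without libraries numbered 4, with ChIP lane, with Y-linked counts only and with TMM factors in the CPM were chosen after seeing the data. With 3 libraries a group, neuron RNA intervals of the members were widest for Dpy30 (-0.20 to 0.34).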
